A study of Homo sapiens with 12 samples.

Results

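HEK293 cells, an established human embryonic kidney line, were compared with and without ferric ammonium citrate (FAC), an iron salt, over the whole layout of the series. The comparison sets the 6 libraries that received FAC (3 with FAC alone and 3 with oleic acid + FAC) against the 6 that did not (3 with vehicle and 3 with oleic acid), with oleic acid, a monounsaturated fatty acid, as a covariate. It therefore uses all 12 of the 12 libraries, chosen by their labelled treatment and by no measured value. The cells are 1 line throughout. How much of either agent was added, and for how long, the sources used here do not state. No library had ammonium citrate alone, so iron and the rest of the salt cannot be told apart. The labels number the replicates without naming separate cultures, so the p-values speak of the spread among these 12 libraries only, which may be technical. The study concerns ferroptosis, in which iron-dependent oxidation of membrane lipids kills the cell, and its limitation by oleic acid.

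Cells sense iron mainly through the iron regulatory proteins. When iron is scarce, these proteins bind hairpins in messenger RNAs: in the 3′ untranslated region (UTR) of TFRC, the transferrin receptor that imports iron, they protect the message from decay, and in the 5′ UTR of the ferritin and ferroportin messages they block translation. When iron is plentiful the proteins let go, so the TFRC message decays while ferritin is made from message already present. The CLK kinases, which bear on several results below, phosphorylate the SR proteins, a family of splicing factors rich in arginine and serine, and control how these factors select exons.

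The hairpins of the messages at the centre of iron control are shown because the TFRC message fell most among well-measured genes while the ferritin messages did not pass the test. A search of GENCODE 29 transcripts, on the sense strand, for the loop letters CAGTGN, preceded at 6 bases by C, with the 5 bases on either side of the loop paired (G with U allowed) found 4 matches in the 3′ UTR of TFRC-201 and 1 in the 5′ UTR of each of FTH1-201, FTL-201 and SLC40A1-201. The letters occur with such a stem in 291 of 19669 protein-coding genes (1.48%), and 1 gene, TFRC, has 4 or more in 1 transcript. Capitals mark the loop letters and the base that follows them, and the build is GRCh38.
TFRC element 1 (chr3:196050978-196051007, minus strand): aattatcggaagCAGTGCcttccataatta
TFRC element 2 (chr3:196050574-196050603, minus strand): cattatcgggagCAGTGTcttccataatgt
TFRC element 3 (chr3:196050509-196050538, minus strand): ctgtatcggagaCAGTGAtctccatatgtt
TFRC element 4 (chr3:196050462-196050491, minus strand): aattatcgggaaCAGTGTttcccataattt
FTH1 (chr11:61967573-61967602, minus strand): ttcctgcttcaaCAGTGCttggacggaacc
FTL (chr19:48965335-48965364, plus strand): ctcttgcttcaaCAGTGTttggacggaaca
SLC40A1 (chr2:189580660-189580689, minus strand): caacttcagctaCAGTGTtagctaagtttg

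MAT2A, the enzyme that makes S-adenosylmethionine, has another kind of hairpin in its 3′ UTR, which the methyltransferase METTL16 binds and through which the cell couples the stability and splicing of the message to the supply of that methyl donor. The 9 letters TACAGANAA, in capitals, occur 6 times in MAT2A-201 on the sense strand. They occur in 2355 of 19669 protein-coding genes (12%), and 3 genes have 6 or more in 1 transcript. The first and the fifth element are shown, since between them they hold both letters found at the open position.
MAT2A element 1 (chr2:85543804-85543831, plus strand): gcgtaggcTACAGAGAAgccttcaagct
MAT2A element 5 (chr2:85545006-85545033, plus strand): aggtgtccTACAGAAAAaccttgggtta

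The shallowest library held 14098216 counts and the deepest 18717397, and 14209 genes could be tested. In the oleic acid and the oleic acid + FAC group the third library stood apart from the other 2: over genes, the SD of their log2 distance to the mean of their own group was 0.406, against 0.254 to 0.330 in the other 10 libraries, and their levels fell with transcript length. The slope of level on log2 transcript length was -0.24 and -0.25 in these libraries and -0.04 to 0.12 in the others. Mitochondrially encoded messages took 3.33% to 7.50% of the counts, except in the third oleic acid + FAC library, where they took 12.1%. Since 1 of these libraries lies on either side of the comparison, the 6 libraries with FAC were set against the 6 without by an exact permutation test within the oleic acid strata, two-sided, whose smallest possible p is 0.005. This exact permutation test gave p = 0.25 for total counts, 0.735 for mitochondrial share and 0.55 for the slope on length (0.735 each after Benjamini-Hochberg adjustment). All 6 markers of HEK293 cells (PAX2, EYA1, SIX2, NEFL, NEFM and NES) were detected in every library. Their summed level was 139 to 170.1 CPM without FAC and 141 to 195 with it. Most of it was NEFL, at 90.7 to 113 CPM without FAC and 83.9 to 120 with it. Of the 31 markers of fibroblasts, epithelium, endothelium, blood and hepatocytes, 8 were high enough to test, and the adjusted p was not under 0.05 for any. COL1A1, the most abundant of the fibroblast list, was at 9.41 to 17.2 CPM without FAC and 11.2 to 17.9 with it. The other fibroblast markers reached at most 0.926 CPM. EPCAM, the most abundant of the epithelial list, was at 5.73 to 11.1 CPM without FAC and 7.11 to 12.4 with it. The summed level of the blood markers was 0.521 to 2.02 CPM without FAC and 1.28 to 2.98 CPM with it, with HBB at 0 in all 12 libraries, and SERPINA1 and CYP3A4 of the hepatocyte list were at 0 as well.

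The 4 genes that mark the comparison separated the 6 libraries with FAC from the 6 without. Levels are CPM, a gene's share of its library's counts after scaling by trimmed mean of M values (TMM), and a gene counts as changed at an adjusted p under 0.05 in the quasi-likelihood test of edgeR with Benjamini-Hochberg adjustment over all genes. TFRC (chr3:196027183-196082189, minus strand) had a lowest, median and highest level of 57.8, 121 and 134 CPM without FAC, and of 13.3, 16.6 and 22.1 CPM with it. The low value of 57.8 CPM is that of the third oleic acid library. It lay well above every library with FAC, and the log2 fold change was -2.73 (SE 0.17, adjusted p = 7.06e-07).

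SRSF6, an SR protein, had 239.8, 259 and 271 CPM without FAC and 105, 117 and 130.3 CPM with it. The 6 values on either side lay within a narrow band, so its fall of 1.12 on the log2 scale had the smallest error of the 4 (SE 0.07, adjusted p = 7.06e-07). HSPA8, the constitutive cytosolic HSP70 chaperone, had 727, 1123 and 1257 CPM without FAC and 331, 424 and 533 CPM with it. Its lowest value without FAC again belonged to the third oleic acid library, and its log2 fold change was -1.34 (SE 0.13, adjusted p = 5e-05). CLK4 rose, from 8.59, 10.0 and 11.1 CPM to 22, 23.8 and 28.1 CPM, for a log2 difference of 1.32 (SE 0.10, adjusted p = 3.49e-06). Without the 2 libraries that stood apart, the log2 fold changes were -2.79 for TFRC, -1.14 for SRSF6, -1.36 for HSPA8 and 1.34 for CLK4, and all 4 passed.

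**Figure D1:**
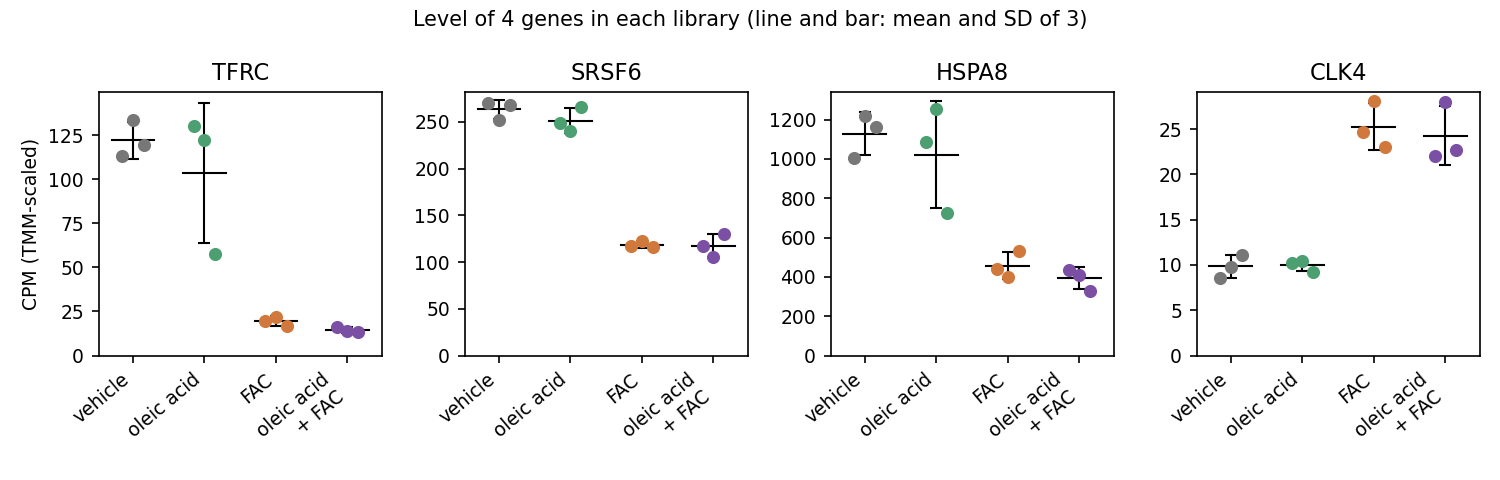
TMM-scaled CPM of TFRC, SRSF6, HSPA8 and CLK4 (vertical axes, each from 0) in the 12 libraries by group, with the mean and SD of 3 libraries as line and bar. In each panel the 6 libraries with FAC do not overlap the 6 without, and the third oleic acid library is the low point of TFRC at 57.8 CPM.

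Of all 14209 genes tested, 1489 changed (10.5%), 567 up (3.99%) and 922 down (6.49%). Most changes were moderate: 1390 were under 2-fold, 521 up and 869 down, and 1073 were under 1.5-fold. Only 46 genes rose and 53 fell at least 2-fold. With the trend on transcript length removed from each library, the balance was more even, at 48.7% of 2500 calls higher against 38.1% here. The 6 and 6 libraries did not overlap for 972 genes (6.84%), of which 398 were higher with FAC (2.80%) and 574 lower (4.04%), and 858 of the 972 passed the test. By gene type, 1442 of the 1489 were protein coding. The share of protein-coding genes among all genes tested was not compared, so this count does not set the changed genes apart. Leaving out the third FAC library lowered the 1489 to 951 (350 up and 601 down) and leaving out the second vehicle library to 976 (362 up and 614 down). The 1390 under 2-fold came to 865 and 893 in these fits, to 907 without the third vehicle library and to 919 without the second oleic acid + FAC library.

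The gain of 6 against 6 lay in genes that a comparison of 3 against 3 did not resolve. In a fit of the same 12 libraries, FAC against vehicle called 169 genes (1.19%) and oleic acid + FAC against oleic acid 314 (2.21%). These share no library with each other, but each shares its libraries with the comparison of 6 against 6, so the overlaps describe resolution only. Of the 1489 genes, 132 were called in both, 36 only without oleic acid and 179 only with it, and 1142 in neither (8.04% of genes tested), 443 up and 699 down. Of these 1142, 1096 changed under 2-fold, with a median absolute log2 fold change of 0.41. The median SE fell from 0.18 in either comparison of 3 against 3 to 0.13, and the smallest absolute log2 fold change called fell from 0.43 and 0.39 to 0.22. Without the third FAC library the 1142 came to 745.

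A single coefficient for FAC is an average over cells without and with oleic acid. The interaction of FAC and oleic acid passed for 0 genes in edgeR, with 116 of 14209 at an unadjusted p under 0.05. Chance alone would place a share of about 0.05 of all genes there, well above these 116. The interaction test was thus conservative here, so its 0 calls cannot show that FAC acted alike without and with oleic acid. For the 4 marker genes the values in the cells without and with oleic acid lay side by side: -2.64 and -2.83 for TFRC, -1.15 and -1.10 for SRSF6, -1.31 and -1.38 for HSPA8, and 1.36 and 1.28 for CLK4.

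**Figure D2:**
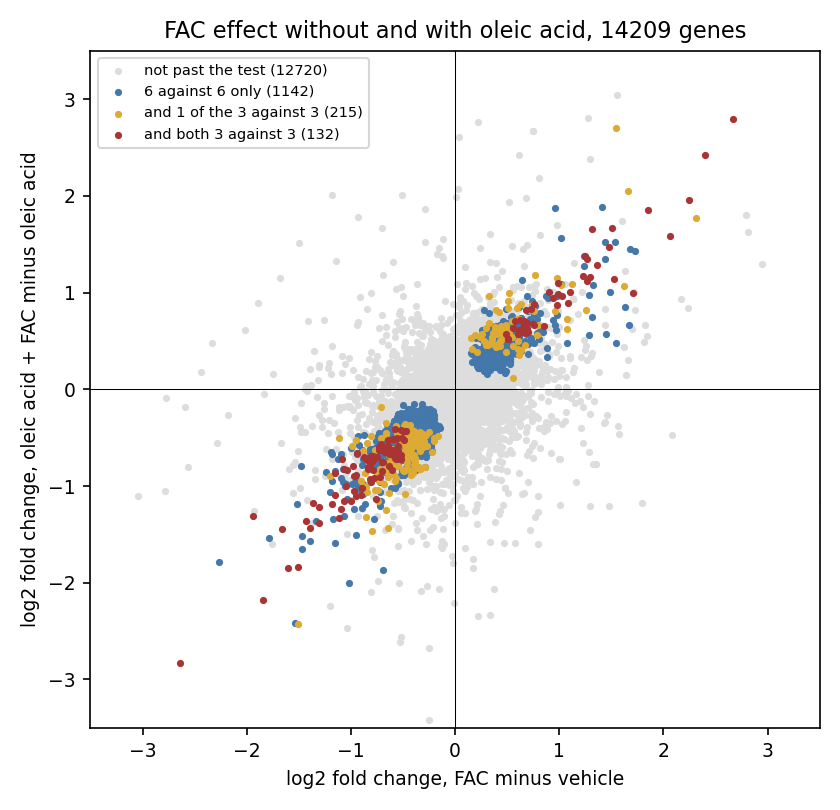
Log2 fold change of FAC minus vehicle (horizontal) against that of oleic acid + FAC minus oleic acid (vertical) for 14209 genes, of which 32 lie outside the axes. Colours mark the 1142 genes called with 6 against 6 only, the 215 also called in 1 comparison of 3 against 3 and the 132 called in both, and the first of these groups lies closest to the origin.

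Of the moderate changes without overlap of the 6 and 6 libraries and without a call in either comparison of 3 against 3, the 10 of smallest p in either direction were taken, where log2 CPM averaged 3 or more. Among the 10 that rose, CLK1, a further CLK kinase, had 14.5, 19.2 and 20.3 CPM without FAC and 25.1, 29.5 and 37.6 CPM with it. The gap between the groups was small and no library crossed it. The log2 fold change was 0.72 (SE 0.12, adjusted p = 0.00151), while the comparisons without and with oleic acid gave 0.75 and 0.69 with adjusted p of 0.0544 and 0.0591. METTL14, the partner of METTL3 in the enzyme that methylates adenosine in messenger RNA, rose from 28.1, 29.9 and 32.5 CPM to 36.7, 40.3 and 45.3 CPM (log2 fold change 0.43, SE 0.07, adjusted p = 0.00215).

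FDFT1, which makes squalene from farnesyl diphosphate, rose from 149, 165 and 196 CPM to 215, 231 and 251 CPM (0.47, adjusted p = 0.00214), and MID1IP1, an activator of acetyl-CoA carboxylase, from 41.1, 42.8 and 49.6 CPM to 53.4, 61.4 and 64.4 CPM (0.44, adjusted p = 0.00226). Both belong to lipid synthesis. TOB2, of the antiproliferative BTG and TOB family, had the smallest change of the 10, from 62.2, 64.3 and 68.1 CPM to 77.0, 83.7 and 89.5 CPM (0.37, SE 0.06). Also among the 10 were TAF4B, a subunit of the transcription factor TFIID (0.46), and ST3GAL1, a sialyltransferase (0.66). The rest were AKAP8L, a nuclear anchoring protein for protein kinase A (0.56), the zinc finger protein ZBTB14 (0.43) and RABGAP1L (0.44). Of the exon bases of AKAP8L, 22.4% lie opposite AC006128.1. RABGAP1L is a GTPase-activating protein for Rab GTPases. From TAF4B to RABGAP1L the adjusted p ran from 0.00146 to 0.00240. The largest deviation in this group was in ST3GAL1, where the third oleic acid + FAC library, at 41.8 CPM, stood under the other 5 with FAC at 54.7 CPM or more.

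Among the 10 that fell, SRSF8, an SR protein, went from 44.0, 49.5 and 54.1 CPM to 34.7, 37.0 and 40.8 CPM (log2 fold change -0.43, SE 0.07, adjusted p = 0.00201). CDC16, a subunit of the anaphase-promoting complex, went from 87.1, 93.3 and 116 CPM to 57.0, 60.2 and 81.6 CPM (-0.61, adjusted p = 0.00172). In CDC16 the third library of either oleic acid group was the highest on its side, so the 2 sides come close at 81.6 and 87.1 CPM. SMAD6, which inhibits BMP signalling, went from 19.8, 21.9 and 27.0 CPM to 13.1, 15.3 and 17.8 CPM (-0.54, adjusted p = 0.00185).

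The others that fell were DHDDS, an enzyme of dolichol synthesis (-0.65), SEC23IP, which acts at sites of exit from the endoplasmic reticulum (-0.50), ADAP2, which acts on Arf GTPases (-0.60), TNFAIP1 (-0.39), the serine hydrolase RBBP9 (-0.60) and the zinc finger genes ZNF283 (-0.71) and ZNF33B (-0.49). Their adjusted p ran from 0.00152 to 0.00214. ZNF283 had 9.39, 11.3 and 12.3 CPM without FAC and 5.79, 6.65 and 7.82 CPM with it. Each of the 20 genes passed in every one of the 20 other settings and fits tried. These reuse the libraries from which the genes were picked by smallest p, so this is no independent support.

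**Figure D3:**
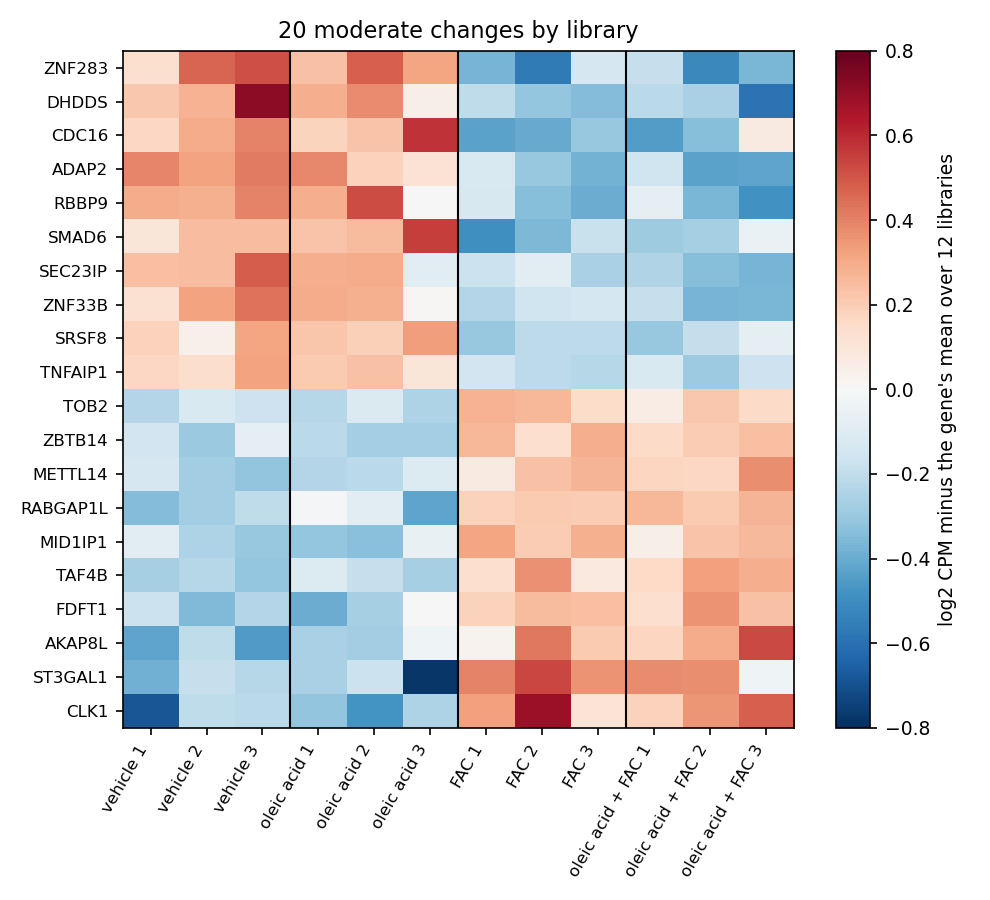
Log2 CPM of 20 moderately changed genes (rows) in the 12 libraries (columns), each minus the gene's mean over 12 libraries, with red above and blue below that mean. The 10 genes that fell, from ZNF283 to TNFAIP1, are mostly red in the 6 libraries without FAC and the 10 that rose, from TOB2 to CLK1, in the 6 with it. The exceptions lie in the third libraries of the oleic acid groups, among them CDC16, SEC23IP and ST3GAL1.

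The largest changes among well-measured genes framed the moderate ones. INSIG1, which holds back the processing of SREBP when sterols are plentiful, rose from 59.7, 81.2 and 97.6 CPM to 356, 434 and 488 CPM, for a log2 difference of 2.41 (SE 0.14, adjusted p = 4.19e-07). MAT2A, with the hairpins shown above, fell from 174, 231 and 263 CPM to 38.8, 52.8 and 86.8 CPM (-2.01, SE 0.15, adjusted p = 4.17e-06). The histone gene HIST2H2BE rose from 1.40, 1.77 and 2.62 CPM to 6.19, 8.11 and 9.69 CPM (2.10, SE 0.17). ZC3H6, a zinc finger protein, rose by 1.86 (SE 0.19). FAM187A had a log2 fold change of -1.72, but 100% of its exon bases lie within CCDC103 on the same strand, so its counts may belong to that gene.

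Of 28 iron-handling genes 24 were abundant enough to test, and 3 of those fell (12.5%, against 10.5% of all genes) and 0 rose in edgeR, where 4 had an unadjusted p under 0.05 in the upward direction. DESeq2 called 1 higher and limma-voom 0, and the median log2 fold change was 0.03 (0.005 for all genes). Besides TFRC they were SLC40A1, the iron exporter ferroportin, and STEAP2, a metalloreductase. SLC40A1 had 2.39, 4.97 and 5.84 CPM without FAC and 1.70, 2.43 and 3.67 CPM with it (-0.92, SE 0.23, adjusted p = 0.0214). The groups overlapped: the low value of 2.39 CPM is that of the third oleic acid library. SLC40A1 did not pass without the first oleic acid (adjusted p = 0.0602), the third vehicle (0.0559) or the third FAC library (0.0581). STEAP2 (-0.64, adjusted p = 0.0199) did not pass without the first (0.05) or second oleic acid (0.0501), the second vehicle (0.0509) or the third FAC library (0.0543).

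The ferritin subunits, which store iron, had positive values that did not pass. FTH1 had 353, 389 and 515 CPM without FAC and 385, 495 and 668 CPM with it, for a log2 difference of 0.30 (SE 0.12, adjusted p = 0.126). FTL had 309, 376 and 589 CPM and 339, 516 and 801 CPM (0.38, SE 0.18, adjusted p = 0.199). In both, the highest value on either side was that of the third library of the oleic acid groups, and the groups overlapped with or without these libraries, since the second FAC library (385 and 339 CPM) lay under the first vehicle library (439 and 459 CPM). Of the exon bases of FTH1, 62.4% lie opposite BEST1. FTH1 passed with the length trend removed (adjusted p = 0.031) and without the 2 libraries that stood apart (0.0421).

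Of 33 genes linked to glutathione, GPX4 and ferroptosis, 1 rose and 5 fell (18.2%, against 10.5% of all genes), with a median of 0.05. The list is not made of defences only: it also holds TFRC, CHAC1 and ACSL4, so the counts do not describe ferroptosis defence. SAT1, which acetylates polyamines, rose from 19.7, 26.3 and 30.04 CPM to 32.1, 45.5 and 61.4 CPM (0.87, SE 0.16, adjusted p = 0.00294). The falls were those of TFRC, of CHAC1, which degrades glutathione (-1.13, adjusted p = 0.0134), of CYB5R1, a reductase (-0.49, adjusted p = 0.00674), of CBS, of the transsulfuration pathway (-0.49, adjusted p = 0.0283), and of SLC7A11, the cystine importer (-0.51, adjusted p = 0.0396). Without any 1 of 10 of the 12 libraries SLC7A11 did not pass (adjusted p from 0.0521 to 0.0970), and its values of 13.1 to 15.3 CPM in 5 of the 6 libraries without FAC contrast with 7.92 in the third oleic acid library. CBS likewise did not pass without the first oleic acid (adjusted p = 0.0673), the first FAC (0.0559), the first (0.05) or second oleic acid + FAC (0.0785), the second vehicle (0.085) or the third FAC library (0.0537). GPX4, which reduces lipid peroxides, had 0.27 (SE 0.13, adjusted p = 0.213), ACSL4, which activates polyunsaturated fatty acids, 0.20 (adjusted p = 0.267), and HMOX1, which degrades heme, 0.31 (SE 0.27, adjusted p = 0.519). GPX4 passed without the 2 libraries that stood apart (adjusted p = 0.0355) and ACSL4 with the length trend removed (0.0272), and in these settings 3 and 4 members of the list rose.

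Of 16 SR proteins tested, 7 fell and 1 rose (50% changed, against 10.5% of all genes), with a median log2 fold change of -0.32. SRSF7 fell from 209, 229 and 283 CPM to 134, 142 and 191 CPM (-0.66, SE 0.10, adjusted p = 7.47e-04), and SRSF10, which represses splicing when dephosphorylated, from 136, 145 and 161 CPM to 105, 109 and 135 CPM (-0.36, adjusted p = 0.0105). SRSF4, named after its values were seen, was the one that rose (0.44, adjusted p = 0.0239), though not without the first or second oleic acid, the second vehicle or the third FAC library. Of the 7 that fell, 5 were called in neither comparison of 3 against 3. The number that fell was 4 without any 1 of the vehicle libraries, of the FAC libraries or of the first and second oleic acid + FAC libraries, and 10 without the third oleic acid + FAC library.

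The test covered 12 kinases of the CLK, SRPK and DYRK families, which phosphorylate SR proteins or are close relatives of those that do. Of these 12, 5 rose (41.7%, against 3.99% of all genes) and 0 fell in edgeR. None had a negative value at an unadjusted p under 0.05, none fell in DESeq2 or limma-voom, and the median was 0.13. CLK3 rose from 22.4, 23.4 and 26.1 CPM to 58.3, 64.3 and 74.6 CPM (1.47, SE 0.08, adjusted p = 4.19e-07), with less spread relative to its change than CLK4. DYRK1B rose from 29.7, 35.9 and 42.7 CPM to 44.1, 51.2 and 60.8 CPM (0.55, adjusted p = 0.00285), and DYRK1A was the fifth (0.32, adjusted p = 0.00807). The count of 5 was the same in all 20 other settings and fits.

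Of 46 hnRNP and RBM proteins, 6 rose and 8 fell (30.4%, against 10.5% of all genes), with a median of 0.11. RBM12 fell from 160.4, 216 and 249 CPM to 92.2, 121 and 126 CPM (-0.87, adjusted p = 1.8e-04), RBM10 from 100.3, 107 and 114 CPM to 66.4, 72.2 and 79.2 CPM (-0.56, adjusted p = 2.87e-04), and RBM4B by 0.90 on the log2 scale. RBM10 regulates the inclusion of exons. LUC7L2, a component of the U1 particle, rose from 96.3, 106 and 115 CPM to 133, 145 and 175 CPM (0.50, adjusted p = 0.00187). Of its exon bases, 21.8% are shared with C7orf55-LUC7L2 on the same strand. The number that rose depended on the setting, with 14 when the length trend was removed, 10 in DESeq2 and 3 without the second or the third vehicle library, while 8 or 9 fell in every setting. Of 39 core proteins of the spliceosome 2 rose and 1 fell (7.69%), with a median of 0.15, a share near that of all genes. SNRNP70 (0.41), SF3B2 (0.23) and PRPF19 (-0.26) were these 3, and none of them passed in every fit with 1 library left out.

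**Figure D4:**
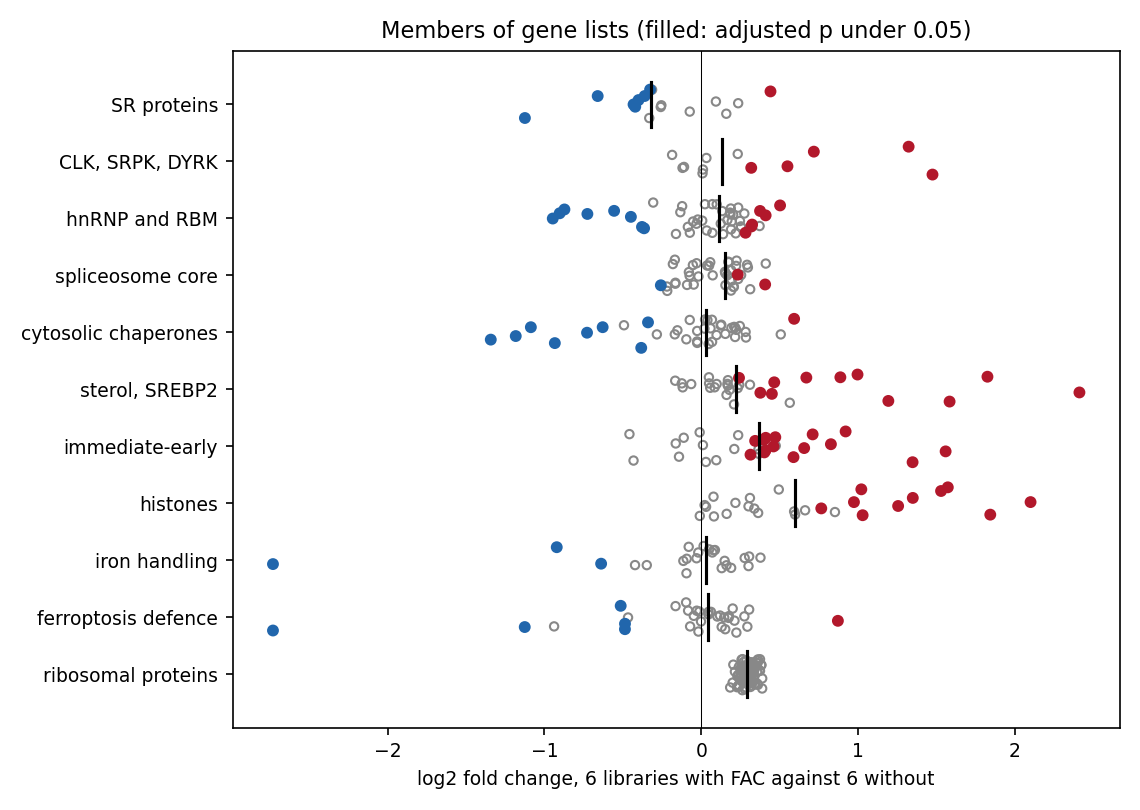
Log2 fold change (horizontal) of the tested members of 11 gene lists, with filled points for members that passed the test, blue lower and red higher, open points for the rest and a black bar at the median. The SR protein median lies at -0.32, the histone median at 0.60, and the ribosomal proteins form a tight cluster around 0.29 with no filled point. The lists labelled ferroptosis defence and cytosolic chaperones also hold other genes, such as TFRC in the former and HSPD1 in the latter.

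At the level of annotated transcripts the power was lower: 219 of 51464 transcripts passed (0.426%), 94 higher (0.183%) and 125 lower (0.243%). Among the CLK, SRPK and DYRK kinases the 3 called were the protein-coding transcripts CLK1-201 (log2 fold change 1.09, adjusted p = 0.00379), CLK3-201 (1.69, adjusted p = 3.9e-05) and CLK4-201 (1.79, adjusted p = 6.2e-04). CLK4-201 ran from 4.64 to 7.04 CPM without FAC and from 18.6 to 22.5 CPM with it. Of the SR proteins SRSF6-201 (-1.23, adjusted p = 0.00121), SRSF7-202 (-0.74, adjusted p = 0.00449) and SRSF8-201 (-0.45, adjusted p = 0.0366) fell, all coding. Other types seldom passed in any gene. Of 4250 decay transcripts 4 rose and 0 fell, of 5873 with a retained intron 1 rose and 0 fell, and of 4595 processed transcripts 2 rose and 3 fell. The calls therefore cannot show that coding messages alone carried the changes. The other transcript of SRSF6, SRSF6-202, is annotated for nonsense-mediated decay and had a negative value too (-0.81, adjusted p = 0.36).

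CLK genes are also transcribed into forms that skip an exon or keep introns and are annotated as non-coding or as targets of decay. The share of the CLK4 counts on such transcripts was 28.3% to 53.7% in the 6 libraries without FAC and 8.31% to 20.7% in the 6 with it, and that of CLK3 19.2% to 29.9% and 8.89% to 17.1%. In both genes no library overlapped, unlike in the other genes of both families examined. The exact permutation test within the oleic acid strata gave p = 0.005 for each, the smallest this design allows. After Benjamini-Hochberg adjustment over the 21 genes of both families the value was 0.0525, so 0 of 21 passed. With only CLK3 and CLK4 at the smallest p, no lower adjusted p was possible for them, so the adjusted test cannot decide. CLK1 had 27.5% to 51.9% and 12.5% to 38.2% (exact p = 0.015, adjusted 0.063), and CLK2 15.4% to 27.2% and 13.9% to 36.9% (p = 0.76, adjusted 0.84). Summed over these transcripts, the level of CLK4 was 2.49, 3.58 and 5.52 CPM without FAC and 1.92, 3.11 and 5.86 CPM with it, and that of CLK3 4.60, 6.13 and 7.30 CPM and 5.30, 8.24 and 12.7 CPM. These levels overlapped in both genes, whereas the other transcripts of CLK4 went from 4.76, 6.33 and 7.20 CPM to 19.8, 21.3 and 23.5 CPM and those of CLK3 from 15.8, 17.8 and 19.4 CPM to 53.7, 55.2 and 63 CPM. Most SR proteins examined had a higher mean share with FAC, and only SRSF1, SRSF11 and SRRM1 had a lower one. SRSF3 had 24.2% to 29.3% without FAC and 28.3% to 39.6% with it (exact p = 0.015, adjusted 0.063). SRSF7 had 7.69% to 13.2% and 12.8% to 27.1% (exact p = 0.015, adjusted 0.063), while SRRM1 had 13.9% to 33% and 3.41% to 29.1% (exact p = 0.195, adjusted 0.382). Assignment of reads among transcripts of 1 gene is estimated, and CLK4 had as few as 123 counts in a library.

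**Figure D5:**
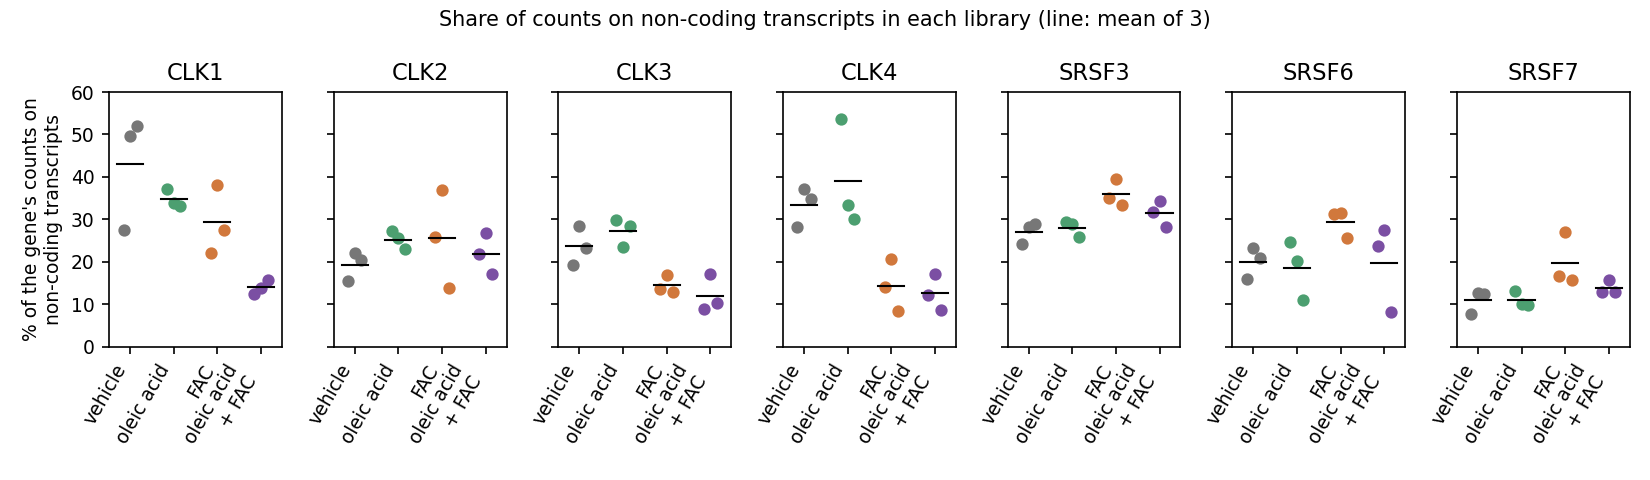
Share of a gene's counts on transcripts annotated as non-coding or as targets of decay (vertical axis, %) in each library by group, with the mean of 3 as a line, for CLK1 to CLK4 and for SRSF3, SRSF6 and SRSF7. CLK3 and CLK4 show no overlap between the 6 libraries without FAC and the 6 with it, whereas the sides overlap in CLK2 and SRSF6. SRSF6 had 10.9% to 24.6% (median 20.5%) without FAC and 8.28% to 31.4% (median 26.6%) with it.

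Of 38 chaperones and their regulators, 8 fell and 1 rose (23.7%, against 10.5% of all genes). The median was 0.03, so the change lay in a minority of the list. Next to HSPA8, HSPA2, a testis-enriched HSP70, fell from 11.2, 16.6 and 20.6 CPM to 5.68, 7.18 and 8.73 CPM (-1.18, SE 0.15, adjusted p = 3.51e-04). DNAJA1, a J-domain partner of HSP70, fell from 254, 260.5 and 306 CPM to 109, 131 and 193 CPM (-0.93, SE 0.14, adjusted p = 9.81e-04), with the third FAC and the third oleic acid + FAC library as the highest of the 6 with FAC. The gene that rose, HSF2, is a transcription factor of the heat shock family rather than a chaperone, and went from 68.4, 70.7 and 73.9 CPM to 97.8, 108 and 114 CPM (0.59, SE 0.06, adjusted p = 1.19e-04). Without the third vehicle library 5 fell, while 3 rose in DESeq2 and 5 with the length trend removed.

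The promoter of HSPA8 is shown because this was the chaperone with the largest fall and its promoter holds the letters that heat shock factors are known to bind. Among 35116 promoters of 300 bases around gene starts in the RefSeq table (GRCh38.p14), 172 held GAA, any 2 bases, TTC, any 2 bases and GAA on either strand (0.49%). Of the 35 genes of the list with a promoter there, 8 held it: HSPA8, DNAJA1, HSPA6, HSPD1, HSP90AA1, HSP90AB1, DNAJB6 and CHORDC1. HSPD1 is a mitochondrial chaperone, so the list is not cytosolic only. The match of DNAJA1 lies past the start. Whether members with these letters fell more often than those without was not tested. The matches of HSPA8 are in capitals and lie 230 to 218 and 55 to 43 bases before the start.
HSPA8 distal match (chr11:123062334-123062386, minus strand): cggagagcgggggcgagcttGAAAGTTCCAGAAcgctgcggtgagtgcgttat
HSPA8 proximal match (chr11:123062159-123062211, minus strand): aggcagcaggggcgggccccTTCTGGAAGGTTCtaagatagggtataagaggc

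Genes of sterol synthesis and uptake, which SREBP2 drives, rose: 11 of 30 passed upward (36.7%, against 3.99% of all genes), with a median of 0.22. None fell in edgeR, DESeq2 or limma-voom, and none had a negative value at an unadjusted p under 0.05. MSMO1, a sterol methyl oxidase, rose from 38.1, 46.7 and 59.5 CPM to 128, 142 and 164 CPM (1.58, SE 0.11, adjusted p = 1.22e-06). SQLE, which makes the epoxide of squalene, rose from 96.4, 117 and 122 CPM to 195, 226 and 263 CPM (1.00, SE 0.09, adjusted p = 2.91e-05), and IDI1, of isoprenoid synthesis, from 61.2, 72.7 and 80.3 CPM to 124, 161 and 226 CPM (1.19, adjusted p = 1.39e-04). The number that rose was 10 or 11 in each of the 12 fits with 1 library left out. Of 18 genes of fatty acid synthesis 3 rose (16.7%, against 3.99% of all genes): MID1IP1, ELOVL6 (0.28) and SCD (0.38). SCD did not pass in 11 of these 12 fits (adjusted p from 0.0531 to 0.114), nor ELOVL6 in 4 of them.

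Immediate-early genes, which respond within minutes to many stimuli, rose in 15 of 29 (51.7%, against 3.99% of all genes), with a median of 0.37. None fell in edgeR, DESeq2 or limma-voom, with 1 negative value at an unadjusted p under 0.05. The transcription factor EGR1 went from 21.9, 40.3 and 58.9 CPM to 69.5, 104 and 125 CPM (1.35, SE 0.19, adjusted p = 5.23e-04) and FOS from 2.84, 5.24 and 8.59 CPM to 8.65, 13.2 and 29.5 CPM (1.56, SE 0.26, adjusted p = 0.00198). In FOS the sides nearly met, at 8.59 and 8.65 CPM, and the comparisons without and with oleic acid did not pass (adjusted p = 0.0578 and 0.0704). MYC rose from 155, 172 and 178 CPM to 221, 255 and 281 CPM (0.59, adjusted p = 3.19e-04), and KLF6 from 23.2, 28 and 29.02 CPM to 36.3, 44.9 and 47.9 CPM (0.71, adjusted p = 3.28e-04). Of the 15, 11 were called in neither comparison of 3 against 3, and without the third vehicle library 9 rose.

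Histone genes, of which 26 of 39 were abundant enough to test, rose in 10 of those 26 (38.5%, against 3.99% of all genes). The list had the highest median of the 34 pathway lists, 0.60, and 25 of 26 positive values. None fell in edgeR, DESeq2 or limma-voom, and none had a negative value at an unadjusted p under 0.05. HIST3H2A rose from 4.62, 6.17 and 7.40 CPM to 9.32, 11.9 and 14.9 CPM (0.97, SE 0.15, adjusted p = 0.00109), HIST1H2AC from 0.322, 0.769 and 0.991 CPM to 1.79, 2.60 and 3.10 CPM (1.84, SE 0.26, adjusted p = 6.99e-04) and HIST2H4B by 1.35 (SE 0.21, adjusted p = 0.00131). HIST2H4A and HIST2H4B are near-identical copies, so their counts cannot be told apart. Most histone messages lack a poly-A tail, and these libraries were made by poly-A selection, so they count the polyadenylated part only.

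Of 50 dioxygenases that use iron and 2-oxoglutarate, 5 fell and 3 rose (16%, against 10.5% of all genes), with a median of 0.03. JMJD4, which hydroxylates the translation termination factor eRF1, fell from 46.9, 52.2 and 59.7 CPM to 18.8, 21.9 and 25.4 CPM (-1.27, SE 0.09, adjusted p = 1.57e-06); 53.8% of its exon bases overlap SNAP47 on the other strand, and the labels do not say that the counting used strand, so these reads may not all be its own. HIF1AN, which hydroxylates the hypoxia-inducible factor, fell from 71.7, 86.3 and 93.2 CPM to 48.2, 56.6 and 59.98 CPM (-0.59, adjusted p = 5e-04), RIOX2, a ribosomal oxygenase with 27.6% of its exon bases opposite CRYBG3, by 0.64 on the log2 scale and ALKBH8, a methyltransferase and hydroxylase of transfer RNA, by 0.48. Between 0 and 3 of the 50 rose when 1 library was left out, and 0 without the third FAC library. Of the 33 HIF targets 2 rose and 1 fell (9.09%), a share near that of all genes. With the length trend removed 6 rose, and 4 did so in DESeq2 and without the 2 libraries that stood apart. The gene that fell is TFRC, and BHLHE40, a transcriptional repressor (1.05, adjusted p = 1.56e-04), and MXI1 (0.27, adjusted p = 0.0264) rose, the last in 5 of the 12 fits with 1 library left out.

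The 76 cytosolic ribosomal protein genes are short and had small values of 1 sign. All 76 were positive, from 0.18 to 0.39 with a median of 0.29, yet 0 passed in edgeR, where 40 had an unadjusted p under 0.05, 1 in limma-voom and 9 in DESeq2. With the length trend removed the median was 0.13 and 17 passed, and without the 2 libraries that stood apart it was 0.30 and 31 passed. Of the 60 nuclear genes of oxidative phosphorylation 59 were positive (median 0.20) and 0 passed in edgeR (9 at an unadjusted p under 0.05, 0 in limma-voom, 2 in DESeq2). With the length trend removed the median was 0.09 and 4 passed, and without the 2 libraries that stood apart it was 0.22 and 12 passed, all higher. Across all genes, split evenly by transcript length, those with the shortest transcripts had a median log2 fold change of 0.065, those of middle length -0.022 and the longest -0.024. The part of transcript length in these values was not tested beyond these medians.

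Of the remaining lists, p53 targets had 2 of 30 higher and 4 lower (20%, against 10.5% of all genes, median -0.09), with BBC3, a mediator of cell death (0.95, adjusted p = 1.86e-04), above and the death receptor FAS (-0.45, adjusted p = 0.00651) below. The balance was 3 and 3 with other size factors or no filter on low counts, and 4 higher and 3 lower without the 2 libraries that stood apart. The 31 genes of the ATF4 stress response had 5 lower (16.1%, against 6.49% of all genes), among them CHAC1 and CBS. Between 1 and 3 of the 31 fell in each fit with 1 library left out. Of 22 chemokine and NF-kB genes 3 fell (13.6%, against 6.49% of all genes), CXCL8 (-1.61, adjusted p = 3.53e-04), CXCL1 (-1.35, adjusted p = 0.00627) and CXCL3 (-1.02, adjusted p = 0.0362), the last not in 8 of the 12 fits with 1 library left out. All of these were at low levels. CXCL8 had 4.35 to 7.72 CPM without FAC and 0.955 to 2.62 CPM with it, and CXCL1 2.17 to 5.04 and 0.639 to 1.84 CPM. CXCL3 had 0.934 to 2.03 and 0.355 to 1.04 CPM, so its groups overlapped. Cyclins and cell cycle regulators had 3 of 31 higher (9.68%, against 3.99% of all genes), with CDKN1B, an inhibitor of cyclin-dependent kinases, at 0.44 (adjusted p = 0.00126) and CDC25A, an activating phosphatase, at 0.42 (adjusted p = 0.00135). Of 29 genes of iron-sulfur cluster assembly 3 changed, all lower (10.3%, against 10.5% of all genes that changed either way). The number that fell was between 1 and 3 when 1 library was left out. CIAO3, of the cytosolic assembly pathway, went from 11.1, 12.7 and 16.7 CPM to 5.35, 6.58 and 9 CPM (-0.92, SE 0.15, adjusted p = 0.00143). Of its exon bases, 21.5% lie opposite HAGHL.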

How the data were processed

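RNA from 12 HEK293 libraries was selected by poly-A and sequenced after TruSeq library construction, per the labels' protocols. Tools listed in the submitters' processing notes are kallisto 0.46.1, which estimates counts per transcript, bcl2fastq 2.19 and sleuth 0.30.0, with the build GRCh38.p12 (hg38). The authors deposited estimated counts for 36459 gene symbols and 188753 transcripts, in whole numbers, with the 12 columns named by sample.

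Genes that passed filterByExpr of edgeR 4.0.16 (R 4.3.3) were scaled by TMM and tested with its quasi-likelihood test, with oleic acid and FAC as additive terms over all 12 libraries. Transcripts were fitted in the same way. The comparisons of 3 against 3 and the interaction came from 1 fit with a mean per group. DESeq2 1.42.0 and limma 3.58.1 (limma-voom) were run as alternatives, as were other size factors, no filter on low counts, a replicate block, removal of the length trend and leaving out libraries. Positions and transcript types come from GENCODE 29, which held 97.1% of the deposited symbols and 89.9% of the deposited transcripts. A count of 3 corresponds to 0.16 to 0.213 CPM. Estimated counts carry assignment error that the model sees only as spread between libraries. The fits were tested on simulated counts.

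Named genes were the 4 markers, the 10 moderate changes (under 2-fold, mean log2 CPM at least 3, no overlap) of smallest p in either direction that neither comparison of 3 against 3 called, the 3 largest changes up and down (mean log2 CPM at least 1, no overlap), up to 4 called members of each list with at least 3 called, 7 iron and ferroptosis genes and, of every list of markers for another cell type, the member with the highest level. Members and lists were chosen with earlier results of these data known.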

Additional observations from a re-analysis of the deposited data

Results flagged for a closer look

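Among 228 groups of 6 values examined (the named genes and the library measures, with and without FAC), 22 had 1 library far from the other 5, by a gap of more than 0.625 of the group's range. Chance flags about 5% of such groups. The third oleic acid library was the distant one in 11 of the 22 and the third oleic acid + FAC library in 8.

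Without FAC, the third oleic acid library was lowest for TFRC (57.8 CPM, the next at 113), SLC7A11 (7.92, the next at 13.1), SCD (311, the next at 403) and MTRR, which reactivates methionine synthase (37.3, the next at 44.7), and for the slope of level on log2 transcript length (-0.24, the next at -0.01). The same library was highest for SMAD6 (27.0, the next at 22), CHAC1 (9.12, the next at 6.17), GABARAPL1, an autophagy adaptor (35.9, the next at 29.8), CCND2, a cyclin (113, the next at 68.7), and the ribosome biogenesis genes RRP1 (118, the next at 95.6) and PPAN (83.6, the next at 67.5). The third vehicle library was highest for ALKBH8 (28.4, the next at 22.6).

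With FAC, the third oleic acid + FAC library was lowest for ST3GAL1 (41.8 CPM, the next at 54.7) and highest for CDC16 (81.6, the next at 63.0), SRSF7 (191, the next at 148), SNRNP70 (701, the next at 530), CHAC1 (6.18, the next at 2.86), MXI1 (86.0, the next at 74.9), CCND2 (185, the next at 125) and DKC1, the pseudouridine synthase (192, the next at 169). The second FAC library was lowest for SF3B2 (425, the next at 459) and highest for MTR, methionine synthase (147, the next at 123).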

How the results depend on the processing

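Of the 102 named genes that passed, 74 passed in every one of the 20 other settings, and none changed sign. Against 1489 changed genes (567 higher, 922 lower, 1390 under 2-fold), the replicate block gave 2498 (1061, 1437 and 2382), removal of the length trend 2500 (1217 higher and 2390 under 2-fold), and leaving out both libraries that stood apart 2327 (1039 higher and 2220 under 2-fold). DESeq2 called 914 genes higher and 2052 in all, of which 1480 were among the 1489. Over the 12 fits with 1 library left out, the calls ran from 951 (without the third FAC library) to 1681 (without the third oleic acid library), those higher from 350 to 641, those lower from 601 to 1040, those under 2-fold from 865 to 1566 and those in neither comparison of 3 against 3 from 745 to 1214. Same-numbered libraries of different groups had correlations of their deviations from -0.07 to 0.61, 13 of 18 over 0.1, and 11 of 12 libraries correlated best with their own number, a hint from the data only, so the numbers were not taken to pair them. With the block FTH1 (adjusted p = 0.0475) and FTL (0.0431) passed. Depth limits genes near 3 counts, and transcript shares rest on estimated assignment.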
